A study of Mus musculus with 6 samples.

Results

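The rabbit IgG background of wild-type (WT) and DNA methyltransferase triple-knockout (TKO) mouse embryonic stem cells was compared through all 1459 peaks of the IgG lists, 402 from WT and 1057 from TKO cells. They were taken from 7165 peaks in the 6 lists of the series, by list and with no filter on their values. The series asked where ATRX and DAXX sit on chromatin with and without DNA methylation, and the IgG precipitates were its background. Each line gave 1 IgG library, so no difference between the lines has a replicate check and none was tested.

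The WT line was J1, labelled WT mES cell, and the other line is labelled as a knockout of the DNMTs, the enzymes that write DNA methylation. Both lines were kept in medium with 2i, a pair of kinase inhibitors: 1 µM PD0325901, which blocks MEK, and 3 µM CHIR99021, which blocks GSK3. Both were fixed in 4% paraformaldehyde for 10 min before sonication. The labels do not say how many clones or cultures stood behind each line. Peak positions hold no marker of cell identity and no measure of methylation, so neither label could be checked from them.

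IgG from an animal not immunised against the target binds no chosen protein. DNA that comes down with it records carry-over on the beads, uneven shearing and amplification, and the way reads are placed on the assembly. Control libraries are known to pile up reads where a genome carries more copies of a repeated sequence than its assembly shows, and at gene families whose copies are nearly identical. All positions are in the mouse build mm9. Gene names are not given, because the gene table at hand follows another build.

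The peaks of the TKO list were longer and held more tags (reads counted in a peak), while the median density of tags in a peak was close in the whole lists. Median length was 440 bp in WT (middle 50% of peaks 225 to 689) and 574 bp in TKO (377 to 868). The 95% order-statistic intervals of these medians, which cover counting error over peaks only, were 409 to 493 and 554 to 592 bp. The longest WT peak had 1748 bp, while 27 TKO peaks exceeded 2 kb and the longest had 6691 bp. Peaks over 1 kb made up 8.21% of the WT and 18.4% of the TKO list.

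Median tags per peak were 34 in WT (interval 30 to 38) and 44 in TKO (43 to 47), and the highest single peaks held 700 and 1526 tags. Per kb of peak the medians were 79.2 tags in WT (75 to 85.1) and 78.0 in TKO (75.9 to 80.1), a ratio of 0.984 with an interval of 0.891 to 1.07. With the 402 peaks of highest score in each list, the ratio of median density was 1.20 and that of median tags 2. At scores of 100 or more the density ratio was 0.808. Summed over a list, WT peaks covered 203 kb with 19267 tags and TKO peaks 750 kb with 69180 tags, ratios of 3.69 and 3.59. Over the summed lengths this gave 94.8 and 92.2 tags per kb. At sites called in both lines the densities were less alike, with the TKO peak denser in 188 of 241 matched pairs. The 10 fullest peaks held 16.6% of all WT and 9.03% of all TKO tags. Summits, the points of highest pile-up, lay near the middle, at a median of 0.503 of the peak's length in WT and 0.502 in TKO.

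The authors' fold enrichment moved the other way. Its median was 70.9 in WT and 28.5 in TKO, a ratio of 0.402 with an interval of 0.376 to 0.446. The values were not continuous. In WT, 176 of 402 folds (43.8%) were whole multiples of 6.48, and in TKO 398 of 1057 (37.7%) were whole multiples of 2.06, within 0.02 of a step. The multiple equalled the peak's own number of tags in 60 WT and 103 TKO peaks and exceeded it in 0 of either. The step was set from the peaks with fewest tags, so for those peaks the equality was largely built in. Some other folds can fall within 0.02 of a step by accident, and their share was not estimated. A step was read as 1 read at the summit, an inference from the values that no header states. On that reading 1 summit read counted for 3.14 times more enrichment in the WT call than in the TKO call. Such a step falls as a caller's background rate rises, and that rate grows with the number of reads and with the length given to each fragment. The tables do not separate these, and their part in the longer TKO list was not tested. The shortest peak was 116 bp with 10 tags in WT, against a shortest length of 150 bp and a fewest of 13 tags in TKO.

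**Figure D1:**
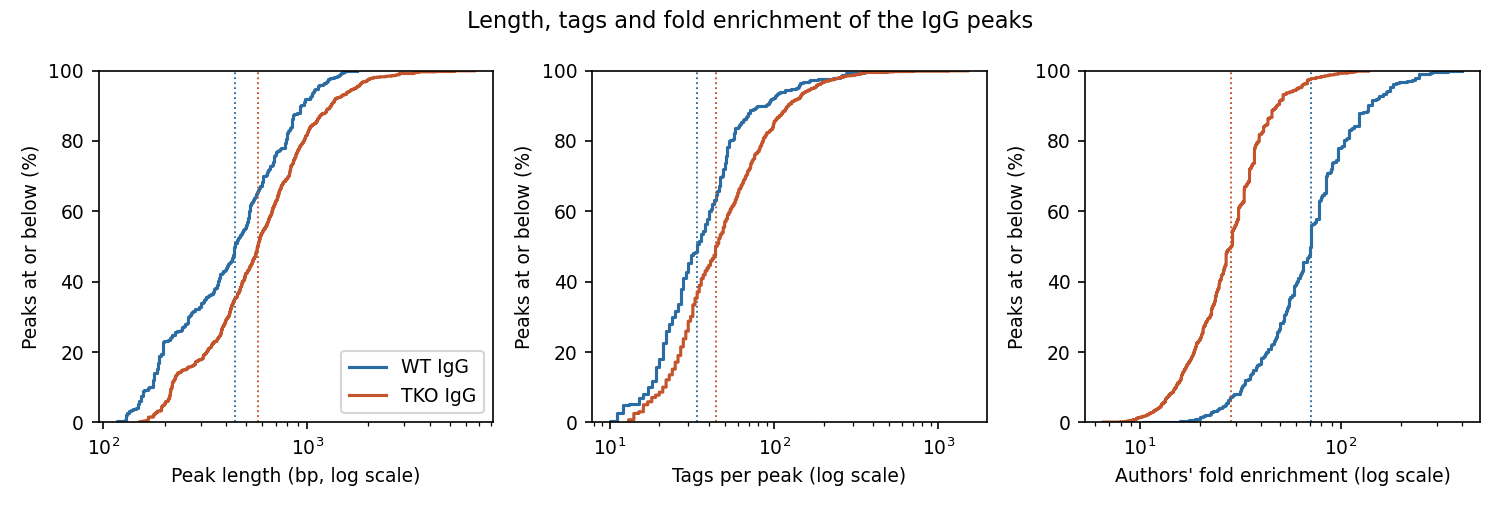
Cumulative share of peaks (%) by peak length in bp, tags per peak and the authors' fold enrichment, each on a log axis, for the 402 WT and 1057 TKO IgG peaks, with dotted lines at the medians. The TKO curves lie to the right for length (medians 440 and 574 bp) and tags (34 and 44), and to the left for fold enrichment (70.9 and 28.5).

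Where both lines had a peak, the TKO peak mostly held more tags and enclosed the WT one. Joined by at least 1 bp of overlap, the lists made 1206 regions, of which 247 were called in both lines, 150 in WT alone and 809 in TKO alone. The 247 held 252 WT and 248 TKO peaks, 62.7% and 23.5% of their lists and 67.7% and 33.1% of their tags. In 241 of the 247 regions 1 peak met 1 peak. Among the 402 peaks of highest score in each list, 43.8% of TKO peaks were shared. Tags were higher in TKO in 225 of the 247 regions and lower in 22. The median TKO/WT ratio of tags was 1.62 (interval 1.52 to 1.74), with the middle 50% between 1.32 and 2.05 and extremes of 0.443 and 7.86. TKO peaks were longer in 223 regions and shorter in 24, with a median length ratio of 1.23.

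Across the 247 regions, tags in the 2 lines had a Spearman rho of 0.799, and a Pearson r of 0.817 on log2 values. This is a description across regions of 1 pair of libraries, and regions that are copies of each other are not independent. In the 241 matched pairs of peaks the TKO peak reached past the WT peak on both sides, or met its edge, in 167 and lay within it in 10. The median extension was 20 bp on the left and 23 bp on the right. Summits lay within 50 bp of each other in 159 pairs (66.0%), at a median distance of 15 bp.

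The authors' fold enrichment was lower in TKO in 225 of the 241 pairs, with a median ratio of 0.458 (0.418 to 0.475). In the 64 pairs whose folds were whole multiples in both lists, the median was 15 summit reads in WT and 22 in TKO, with a median ratio of 1.47 (1.38 to 1.60). TKO had more summit reads in 54 of these pairs and fewer in 10. Summit reads are the fold divided by the step of its list, so they restate the fold on another scale. Some of these pairs are also copies of each other. The counts of tags are a further value, though not a separate one where the multiple equalled the peak's own tags. By those counts, more tags in TKO mostly went with a lower fold at the same sites.

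Single regions departed from the common ratio in both directions. Relative to the total tags in shared regions, which were 1.75 times higher in TKO, 14 of 247 regions (5.67%) were higher in TKO by a factor of 2 or more. Another 11 (4.45%) were lower by as much, and 222 lay between. All 14 of the first kind and 4 of the second were in the clusters of peaks described below, which held 164 of the 247. In the clusters the median TKO/WT ratio of tags was 1.74 (1.61 to 1.91) and outside them 1.47 (1.33 to 1.56). Tags were counted within each line's own peak, so all these ratios also depend on the called lengths.

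**Figure D2:**
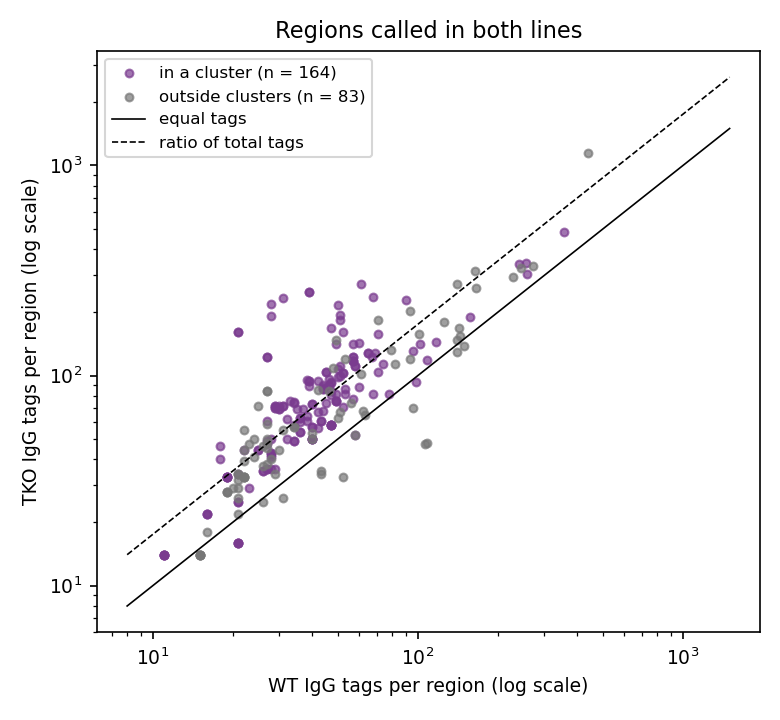
Tags per region in WT (x axis) and TKO IgG (y axis), both on log scales, for the 247 regions called in both lines, coloured by whether they lie in a cluster of peaks. The solid line marks equal tags and the dashed line the 1.75-fold ratio of total tags, and 225 points lie above the solid line.

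The shared region with most tags was chr18:4195200-4199477, where 2 WT peaks held 439 tags and 1 TKO peak held 1146. Next came chr6:47693261-47694339, with 355 WT and 481 TKO tags, and chr8:27079862-27080611, with 272 and 334. Further regions of the chromosome 6 site held 256 and 345 tags (chr6:47702306-47703033), 240 and 341 (chr6:47689359-47690079) and 259 and 306 (chr6:47712380-47713465). Thus 4 of the 10 fullest shared regions came from 1 stretch of chromosome 6.

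The other 4 of the 10 lay on chromosomes 15, 2 and 5. On chromosome 15 a pair of neighbours, chr15:91738846-91740326 and chr15:91737378-91738787, held 244 and 326 tags and 229 and 293 tags in WT and TKO. The region chr2:20821245-20822082 held 164 and 313, and chr5:125866357-125867692 held 165 and 260. All 10 had more tags in TKO, by factors from 1.18 to 2.61.

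The highest TKO/WT ratios, among 219 regions with at least 20 tags in each line, were all on chromosomes 4 and 17. They were chr17:6605084-6608440 (28 WT and 220 TKO tags, ratio 7.86), chr17:6810496-6813879 (31 and 235, 7.58) and chr17:6853011-6855828 (28 and 193, 6.89). The regions chr4:145879202-145881325 and chr4:146424557-146426680 had the same values, 21 WT and 161 TKO tags, a ratio of 7.67. In these 5 regions the TKO peak was 5.43 to 6.52 times as long as the WT peak.

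The lowest ratios among the same 219 regions were scattered over 5 chromosomes. They were chr17:46257684-46258740 (106 WT and 47 TKO tags, 0.443), chr5:150348998-150349503 (108 and 48, 0.444) and chr14:10517977-10518371 (52 and 33, 0.635). The others were chr1:193379087-193379919 (96 and 70, 0.729) and chr11:69538013-69538690 (43 and 34, 0.791). None of these 5 lay in a cluster. Just outside the limit of 20 tags, 4 copies on chromosome 4, the first at chr4:88425906-88426114, held 21 WT and 16 TKO tags each, a ratio of 0.762, and lay in a cluster.

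Peaks found in 1 line alone were weaker than shared ones in both lists. WT peaks without a TKO partner had a median of 26.5 tags (24 to 30) and a score of 71.1, against 39.5 tags (34 to 43) and 88.1 for shared ones. The score, per the header, is the negative log10 of a p-value multiplied by 10. TKO peaks without a WT partner had 39 tags (36 to 43) and a score of 79.7, against 69 tags (61 to 74) and 141.75. With each list cut by score into 4 equal groups, from lowest to highest, the shared percentage in WT was 35.6, 59.0, 78.0 and 78.2. In TKO it was 7.92, 13.3, 18.6 and 54.2. Both lists begin just above a score of 60, the lowest being 60.1 in WT and 60.02 in TKO.

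Unshared peaks lay at both short and long distances from the other line's peaks. Of the 150 unshared WT peaks, 25 were within 1 kb of a TKO peak, 51 within 10 kb and 74 within 100 kb, while 76 lay farther. Of the 809 unshared TKO peaks, 69 were within 1 kb of a WT peak, 273 within 10 kb and 448 (55.4%) within 100 kb. The other 361 lay farther. Whether these shares exceed those of randomly placed peaks was not tested.

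The fullest peak of the whole WT list was an unshared one, chr9:3013660-3015124, with 700 tags and a score of 96.3. It was followed among unshared WT peaks by chr6:47697606-47698680 (352 tags), chr8:19991791-19993091 (273), chr6:47727845-47728447 (135) and chr10:116315346-116316839 (101). In the TKO list the fullest peak was likewise unshared, chr8:56203824-56209072, with 1526 tags over 5249 bp. The next unshared TKO peaks were chr4:146735790-146742480 (663 tags), chr16:57391208-57392027 (535), chr4:147009552-147014853 (497) and chr15:33761327-33763740 (365). Peaks with many tags were not always those with a high score. The 1526-tag peak scored 95.66 with a fold of 6.55, the lowest fold of its list, while chr8:27079912-27080479 in WT scored 1356 with 272 tags and a fold of 400.

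Of the 10 WT peaks with most tags, 7 had a TKO partner, and of the 10 such TKO peaks 4 had a WT partner. Chromosome 6 from 47689377 to 47713446 gave 5 of the 10 in WT, holding 355, 352, 259, 256 and 240 tags. The same stretch gave 3 of the 10 in TKO, with 481, 345 and 341 tags. The other WT peaks in this group included chr18:4196273-4198020 with 253 tags, against 1146 in its TKO partner, and chr15:91737399-91738742 with 229 against 293. The TKO group also held chr5:15215974-15219302, with 346 tags and no WT partner.

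The ratio of list lengths varied by chromosome, mostly within counting error. The TKO/WT ratio of peak numbers was 2.63 over all chromosomes and ran from 1.33 on Y (12 and 16 peaks, interval 0.592 to 3.09) to 3.89 on 13 (18 and 70 peaks, 2.29 to 6.94). Chromosome 4 had a ratio of 3.41 (59 and 201 peaks, 2.54 to 4.63) and chromosome 14 of 3.60 (50 and 180, 2.62 to 5.03). On chromosome 8 it was 3.47 (15 and 52, 1.92 to 6.63). Among all chromosomes, only the interval of chromosome 6 excluded 2.63. Chromosome 6 was low at 1.46 (50 and 73 peaks, 1.01 to 2.14). Its share of the list was 12.4% in WT (9.37 to 16.1) and 6.91% in TKO (5.45 to 8.61). Many of its peaks are copies of each other, described below, and are not independent counts.

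In tags the contrast on chromosome 4 was wider than in peaks. Its peaks held 2189 WT and 15554 TKO tags, 11.4% and 22.5% of the tags of their lists. Chromosome 6 went the other way, with 3257 and 5714 tags, 16.9% and 8.26%. On chromosome 9 the WT list had more tags than the TKO list, 873 against 402, and 700 of the 873 lay in the single peak at 3013660. The WT peaks most often matched in TKO were on chromosomes 4 (46 of 59), 17 (23 of 30) and 6 (38 of 50), and the chromosome with the smallest matched share was 9, with 1 of 6.

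**Figure D3:**
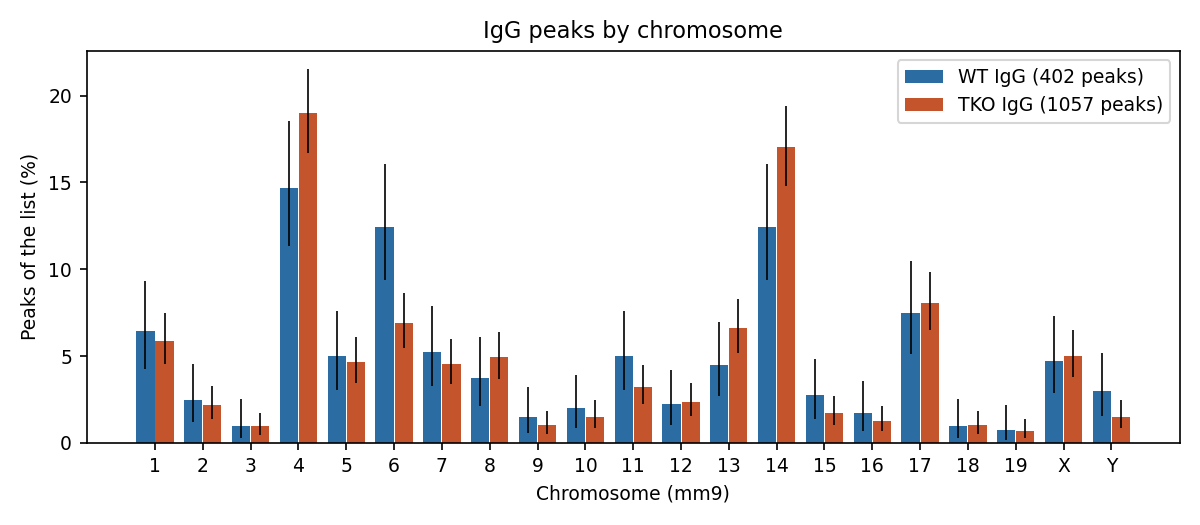
Share of each IgG list's peaks (%) on each mm9 chromosome, with exact 95% binomial intervals, for 402 WT and 1057 TKO peaks. Chromosomes 4 and 14 lead in TKO with 201 and 180 peaks, and chromosome 6 is lower in TKO (6.91%) than in WT (12.4%).

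The IgG peaks were gathered in few places. Another peak of the same list lay within 10 kb for 38.8% of WT (34.0 to 43.8) and 58.1% of TKO peaks (55.0 to 61.1), and within 100 kb for 61.9% (57.0 to 66.7) and 71.3% (68.5 to 74.0). In the ATRX and DAXX lists of both lines the share within 10 kb was 5.14% to 12.1%, and within 100 kb it was 20.1% to 38.2%. These 4 lists held 570 to 2046 peaks, and the part of list length in the spacing was not tested.

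Chaining peaks of either line across gaps of up to 100 kb gave 451 groups, of which 304 held a single peak. Only 29 groups, here called clusters, held 10 or more peaks. They spanned 8.27 Mb on 12 chromosomes and held 221 WT (55.0%) and 619 TKO peaks (58.6%), with 53.0% and 65.5% of the tags. Each of the 29 held peaks of both lines. TKO peaks outnumbered WT peaks in 28, with a median ratio of 2.95. The TKO/WT ratio was 2.80 inside the clusters (2.40 to 3.28) and 2.42 outside them (2.03 to 2.89). Clusters were picked on the peaks of both lines together, so a place could reach 10 peaks through TKO alone. This contrast and the 28 of 29 are therefore not independent of that choice or of the longer TKO list. Outside the clusters there were 181 WT and 438 TKO peaks.

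The largest cluster was chr4:145270106-146255414, with 29 WT and 104 TKO peaks holding 1169 and 8127 tags. Its neighbour chr4:146366960-146514168 held 11 and 34 peaks, and chr17:6571242-6907551 held 19 and 56. In windows of 1 Mb, chromosome 4 from 145 to 146 Mb held 21 WT and 75 TKO peaks and from 146 to 147 Mb 22 and 75. Chromosome 17 from 6 to 7 Mb held 21 and 67. These were the 3 fullest TKO windows, with 7.10%, 7.10% and 6.34% of the list. They were also among the 4 fullest WT windows, beside chromosome 6 from 47 to 48 Mb with 21 peaks in each line.

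Of the 7 clusters on chromosome 14, 6 lay near its start. They included chr14:4093336-5211847 (11 WT and 29 TKO peaks) and chr14:7183986-8257822 (4 and 30). The latter had the highest ratio of any cluster, 7.5. It was followed by chr13:65705600-66243171, with 4 and 29 peaks and a ratio of 7.25. At the other end was chr6:47610242-47728447, the single cluster with more WT than TKO peaks, 21 against 19. Its tags were near equal as well, 2249 in WT and 2610 in TKO. The Y chromosome cluster, chrY:2028439-2189953, held 9 and 12 peaks with 340 and 433 tags.

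**Figure D4:**
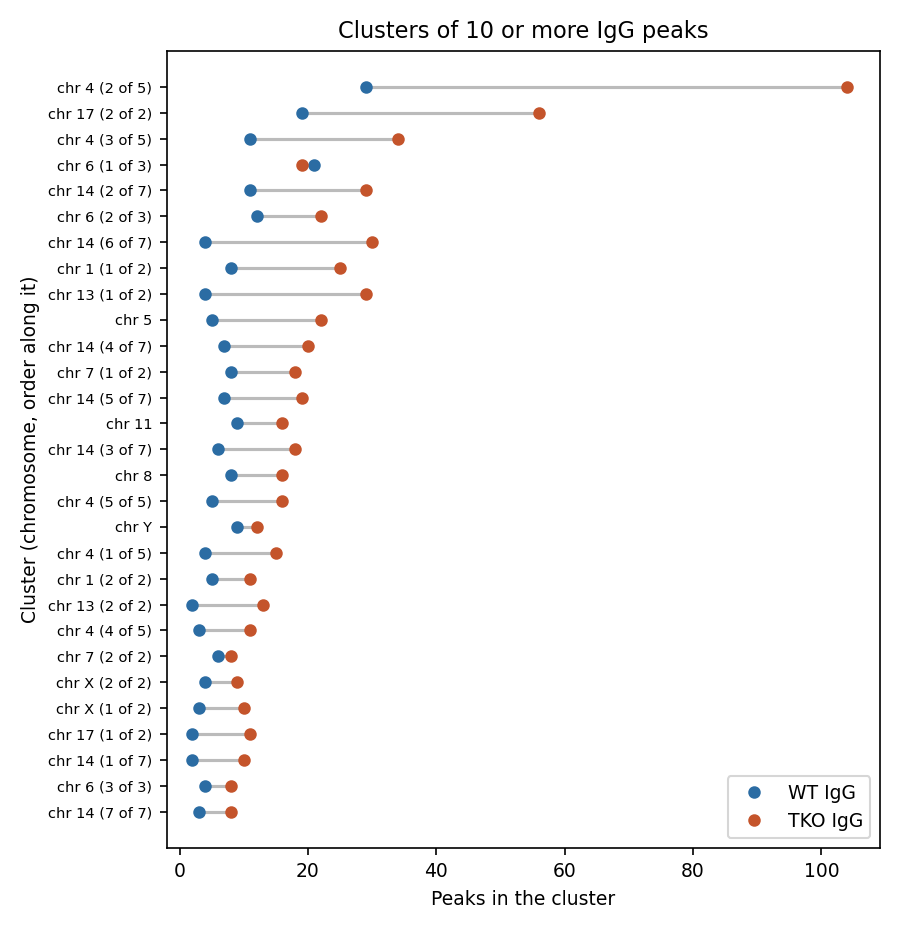
Number of WT (blue) and TKO (orange) IgG peaks in each of the 29 clusters with 10 or more peaks, named by chromosome and order along it. TKO exceeds WT in 28 clusters, by most in the largest on chromosome 4 (29 and 104), and the first chromosome 6 cluster is the exception (21 and 19). Clusters were picked on the peaks of both lines together.

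ATRX and DAXX peaks were found in the clusters too, which were defined by the IgG peaks alone. Of the ATRX peaks, 18 of 1440 in WT (1.25%) and 17 of 1650 in TKO (1.03%) lay in the 29 clusters. Of the DAXX peaks it was 16 of 570 in WT (2.81%) and 16 of 2046 in TKO (0.782%). The largest cluster, on chromosome 4, held 7 of these WT DAXX and 6 of these TKO ATRX peaks, but only 1 WT ATRX and 1 TKO DAXX peak. The 1 Mb window from 145 Mb held 6 WT DAXX and 9 TKO ATRX peaks, with 3 WT ATRX and 1 TKO DAXX peak. The window from 146 Mb held 5 WT DAXX and 5 TKO ATRX peaks, with 2 WT ATRX and 0 TKO DAXX peaks. Both windows overlap the largest cluster and are not separate cases. Elsewhere the counts differed. The cluster chr14:7183986-8257822 held 5 WT ATRX and 4 TKO DAXX peaks, with 1 TKO ATRX and 0 WT DAXX peaks. On chromosome 17 the window from 6 to 7 Mb held 6 TKO DAXX, 2 TKO ATRX, 1 WT ATRX and 0 WT DAXX peaks. No share of mappable sequence was at hand to set these values against. The control used to call the antibody lists is not given in the sources used here, and subtraction of IgG reads there was not tested.

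Part of the peaks came in exact copies, and most of these copies lay within the clusters. A peak was counted as a copy if another peak of the same list, on the same chromosome, had the same length, the same summit offset and the same number of tags. This held for 133 of 402 WT peaks (33.1%, 28.5 to 37.9) in 49 sets and for 316 of 1057 TKO peaks (29.9%, 27.1 to 32.8) in 132 sets. With 20 tags or more it still held for 30.7% of WT and 29.1% of TKO peaks. Of the copies, 113 in WT and 251 in TKO lay in the 29 clusters, which held 221 WT and 619 TKO peaks.

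Such agreement was far rarer between chromosomes. In WT, 140 of 6221 possible pairs of peaks on 1 chromosome had all 3 values in common (2.25%), against 25 of 74380 pairs on different chromosomes (0.0336%). In TKO it was 260 of 53483 pairs (0.486%) against 79 of 504613 (0.0157%). The ATRX and DAXX tables give no tags or summits. By equal length and equal score on 1 chromosome, 30.3% of WT and 29.7% of TKO IgG peaks had a copy, against 2.79% to 4.10% in the 4 antibody lists.

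A set of 5 copies opened the first chromosome 6 cluster. In WT its peaks were each 197 bp long with 47 tags and began at 47610244, 47614605, 47618935, 47627587 and 47631905. In TKO each of the 5 was 218 bp long with 58 tags and began 2 bp earlier. The gaps between neighbouring starts ranged from 4318 to 8652 bp. Although their tags were the same, the authors' folds ranged from 162 to 276 in WT and from 71.2 to 120 in TKO. One number of reads thus received different enrichments at different copies, and folds differed within 11 of the 49 WT and 28 of the 132 TKO sets.

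The second chromosome 6 cluster, chr6:114447413-114576812, held 12 WT and 22 TKO peaks. Of these, 5 WT peaks were 129 bp long with 11 tags, and each lay within a TKO peak of 166 bp with 14 tags that began 18 bp earlier. TKO had a copy more, which began at 114522007 and had no WT partner. The WT copies had 1 tag more than the 10 of the emptiest peaks of their list.

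Copies also lay far apart. On chromosome 14 a set of 5 began at 3118425, 4171492, 4341131, 4573648 and 4801152 in WT, each 178 bp long with 19 tags. The 5 TKO partners were 214 bp long with 33 tags and began 20 bp earlier. On the Y chromosome 5 WT peaks of 839 bp with 40 tags, from 2087213 to a last start at 2387881, met 5 TKO peaks of 568 bp with 50 tags that began 88 bp later. On chromosome 4 a set of 4 WT peaks of 921 bp with 57 tags began at 145326534, 145922164, 146198483 and 146467519. The distance from the first to the last start of a set had a median of 455 kb in WT and 545 kb in TKO.

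**Figure D5:**
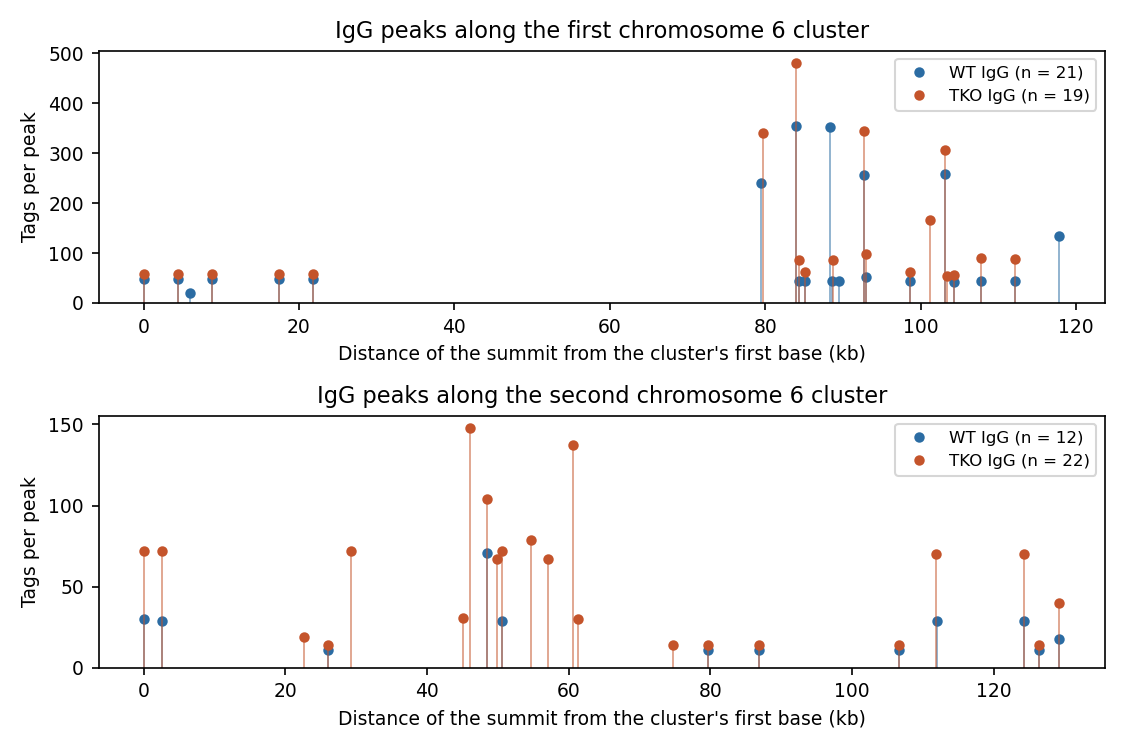
Tags per IgG peak (y axis) against the distance of the summit from the cluster's first base in kb (x axis), for the first and second chromosome 6 clusters in WT (blue) and TKO (orange). Copies lie at equal height, such as the 5 peaks of 47 WT and 58 TKO tags at the left of the upper panel. Equal height alone shows equal tags, not equal length or summit offset.

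Many sets of copies were called in both lines. In 28 of the 49 WT sets every peak met a TKO peak, and these partners were copies of each other at 1 common offset. In 35 of the 49 every peak met some TKO peak, and in 12 none did. Of the 132 TKO sets, 30 had such a uniform WT partner and 96 had none. How reads that match several places were assigned is not stated in the labels, and the tables do not tell whether copies hold the same reads or equal numbers of different reads. If they hold the same reads, the summed tags above count those reads more than once. Copies held 21.4% of all WT and 23.0% of all TKO tags. With 1 peak kept per set, the lists held 318 WT and 873 TKO peaks, a ratio of 2.75 (2.41 to 3.13). Copies that differ in length, summit offset or tags remain in these lists, as do peaks with all 3 values equal on different chromosomes.

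An ATRX or DAXX peak of the same line overlapped 2 of 402 IgG peaks in WT (0.498%, 0.0603 to 1.79). In TKO this held for 5 of 1057 (0.473%, 0.154 to 1.10). Among WT peaks with a score of 100 or more the share was 1.82%. In WT these were chr5:125866423-125867668, with 165 tags, which enclosed ATRX peaks of 152 bp starting at 125866703 and 125867159, and chr2:18460975-18461282, with 49 tags, inside a DAXX peak. The IgG peaks covered only 203 kb in WT and 750 kb in TKO. Whether the overlaps are fewer or more than those of randomly placed peaks was not tested. The control used to call the antibody lists is also unknown here.

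In TKO the 1526-tag peak on chromosome 8 overlapped 1 ATRX and 2 DAXX peaks. The IgG peak chr5:125866357-125867692, with 260 tags, enclosed 2 DAXX peaks with the coordinates of the WT ATRX peaks at that site. An ATRX peak overlapped chr4:146127083-146130591, with 313 tags, and another overlapped chr6:47712671-47713465, with 306 tags. A DAXX peak met the edge of chr11:60483341-60485092, with 122 tags, over 61 bp. All 5 TKO peaks were above the list's median of 44 tags, as both WT peaks were above theirs of 34. Over all 4 antibody lists of either line, 5 WT and 8 TKO IgG peaks had an overlap. Among the WT ones was the 700-tag peak on chromosome 9, which enclosed a TKO DAXX peak of 288 bp.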

How the data were processed

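The 6 libraries were precipitated chromatin from 2 lines and 3 antibodies, and groups follow the sample titles. Per the submitters' processing notes, the tools were Bowtie2 and Picard and the build mm9. The sources used here do not give the peak caller's version, settings or control. The IgG tables deposited by the authors hold start, end, length and summit in bp, counts of tags per peak, a score (10 times the negative log10 of a p-value) and a fold enrichment ratio, per the file headers. The ATRX and DAXX lists deposited by the authors hold positions and a score, and their starts were changed to count from 1.

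All IgG peaks were used. Overlap meant 1 bp or more. Shares and ratios of counts carry exact Clopper-Pearson 95% intervals and medians order-statistic intervals; an interval for a ratio of medians joins the outer bounds of both. All cover counting error over peaks only. Fold steps were taken from the peaks with fewest tags. Total reads per library are not in the tables. Overlap and step procedures were tested on simulated data. There the peaks with fewest tags were given folds of their tags times the step, so its recovery was built in. That test does not bear on the reading of a step as 1 summit read. Regions named in the text are those with most tags per list, shared and unshared, the extreme TKO/WT ratios of tags, the fullest 1 Mb windows and all overlaps with antibody peaks of the same line. The other clusters and sets of copies were picked after their values were seen, and all members and measures were chosen with earlier results of these data known. Python 3.11.15, numpy 2.4.6, pandas 2.3.3, scipy 1.17.1 and matplotlib 3.10.9 were used. No sequence is printed, since no mm9 genome was used here.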

Additional observations from a re-analysis of the deposited data

How the results depend on the processing

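With 1 library per line nothing could be left out in turn. Of 63 recomputed values, 37 stayed within the interval of the main value, 26 moved outside it and 0 reversed. A reversal could be recorded only for ratios whose main interval excluded 1, so not for percentages, tag density or summit position. The density ratio fell on both sides of 1. Its interval was 1.05 to 1.34 with the 402 peaks of highest score and 0.597 to 0.960 at scores of 100 or more. With each list reduced to its 402 peaks of highest score, the shared share was 45.0% of WT and 43.8% of TKO peaks, and the TKO/WT ratios of medians were 1.65 for length, 2 for tags, 1.20 for tag density and 0.489 for fold. This choice leaves the WT list whole and keeps the strongest TKO peaks. At a score of 100 or more, the ratio of list lengths was 3.58, the shared share 69.1% of WT and 18.8% of TKO peaks, the density ratio 0.808 and the tag ratio in shared regions 1.48. The WT share was then 20.9% on chromosomes 4, 14 and 17, 51.8% within 100 kb of another peak and 1.82% overlapping ATRX or DAXX peaks. Without chromosomes 4, 14 and 17 the ratio of list lengths was 2.25 and the tag ratio in shared regions 1.5. Asking for 50% of both peaks left 50.7% of WT and 19.3% of TKO peaks shared, and summits within 200 bp left 51.5% and 19.6%. Chosen after the data were seen, 1 peak per set of copies put 51.9% of WT and 65.2% of TKO peaks within 100 kb of another and 40.3% of TKO peaks on chromosomes 4, 14 and 17. A gap of 50 kb put 47.0% of WT and 45.5% of TKO peaks in clusters, and one of 200 kb put 62.2% of TKO peaks there. Except where stated, the cause was not tested. Joining peaks within 1 kb and a minimum of 20 tags moved no value they were applied to. The unknown depth of both libraries limits any reading of a missing peak.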
